A study of Mus musculus with 6 samples.

Results

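The non-clustered protocadherins were followed in the RNA-seq libraries of cultured mouse cerebellar granule cells (GCs). Protocadherins are cadherin-type adhesion proteins with a single pass through the membrane. Unlike the clustered alpha, beta and gamma genes, the non-clustered ones each stand as a separate gene. The delta-1 group (here Pcdh1, Pcdh7 and Pcdh9) carries an additional extracellular cadherin repeat compared with the delta-2 group (Pcdh8, Pcdh10, Pcdh17, Pcdh18 and Pcdh19), and several delta-2 members bind the WAVE regulatory complex, through which they act on actin. Pcdh15 and Pcdh20 fall outside both groups. These proteins are known for sorting axons, for axon growth and for synapse formation, and several are expressed by subsets of neurons. The 10 genes were chosen by name, with earlier results of these data known, so that Pcdh18 could be placed among its relatives. They are 10 of the 53421 genes of the count table. All 10 were among the 17214 genes kept for testing.

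The libraries came from GCs of C57BL/6 pups at postnatal day 8, grown in Neurobasal A-medium with B27. The cells were infected with a lentivirus carrying either the hairpin shYthdf2, directed against the m6A reader YTHDF2, or the control hairpin shCtrl, and infected cells were selected with puromycin. Each group holds 3 libraries, numbered 1, 2 and 4 in their names. The cells of both groups therefore went through infection and the drug, and, as far as the names show, the shYthdf2 libraries share 1 hairpin. The sample titles and genotype tags give the groups the other way round from the library names. The names were followed here, and every direction given would be inverted if the titles were right. Ythdf2 itself was at 501, 402 and 501 normalized counts in the libraries named for the knockdown (KD) and at 618, 841 and 628 in those named for the control. The groups did not overlap, with a log2 fold change of -0.57 (SE 0.16, edgeR adjusted p = 0.125) that did not pass the threshold of 0.05. It passed with DESeq2 (0.0406), with a batch term for replicate 2 (0.0465) and without replicate 2 in both groups (0.00124, at a log2 fold change of -0.32), and its adjusted p ranged from 0.00124 to 0.363 over the 15 alternatives.

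Library totals lay between 17246821 and 21546595 counts. Values are given as counts normalized by TMM (trimmed mean of M-values) to a common library size, in the order of replicates 1, 2 and 4, and changes as log2 fold changes of shYthdf2 over shCtrl. In both groups replicate 2 stood apart from the other libraries of its group. Over the genes tested, the libraries of replicates 1 and 4 correlated at 0.991 in shYthdf2 and 0.992 in shCtrl, whereas the 2 libraries of replicate 2 correlated with each other at 0.985 and with the rest at 0.963 to 0.977. Between the groups, the libraries of replicates 1 and 4 correlated at 0.967 to 0.969, within that same range. Granule neuron markers summed to 140627 to 141749 normalized counts in shYthdf2 and 141544 to 158144 in shCtrl. All 9 of them were tested, 5 had a positive log2 fold change and the median was 0.05. At an unadjusted p under 0.05, 0 were higher and 2 were lower, Neurod1 (-0.32, SE 0.09, edgeR adjusted p = 0.124) and Cbln1 (-0.64, SE 0.19, edgeR adjusted p = 0.140). In these bulk libraries fewer cells of a type and less RNA per cell cannot be told apart.

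The upstream sequences of 4 of the 5 delta-2 members are shown because this group holds both the member past the threshold (Pcdh17) and a member not shown to change in the fit of all 6 libraries (Pcdh10). They are the 250 bases before the RefSeq start (GRCm38.p6), on the gene's strand, at chr14:84443313-84443562 (+) for Pcdh17, chr3:49757317-49757566 (-) for Pcdh18, chrX:133688994-133689243 (-) for Pcdh19 and chr3:45378148-45378397 (+) for Pcdh10. Capitals mark the CAAT box CCAAT, the GC box GGGCGG, the TATA box TATAAA, the cAMP response element TGACGTCA and the E-box CANNTG, each searched on both strands. In capitals, ATTGG is therefore the CAAT box and CCGCCC the GC box on the opposite strand, and no marked letters overlap.
Pcdh17 upstream: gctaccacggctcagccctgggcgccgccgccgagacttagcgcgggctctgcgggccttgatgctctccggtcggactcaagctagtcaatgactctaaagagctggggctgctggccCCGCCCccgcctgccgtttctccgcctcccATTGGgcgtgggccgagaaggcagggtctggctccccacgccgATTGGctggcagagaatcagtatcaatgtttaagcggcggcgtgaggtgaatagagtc
Pcdh18 upstream: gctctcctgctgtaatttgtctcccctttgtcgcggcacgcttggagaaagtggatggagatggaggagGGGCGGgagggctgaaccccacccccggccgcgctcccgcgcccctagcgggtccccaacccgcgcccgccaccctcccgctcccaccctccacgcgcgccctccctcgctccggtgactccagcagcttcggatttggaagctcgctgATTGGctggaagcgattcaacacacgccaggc
Pcdh19 upstream: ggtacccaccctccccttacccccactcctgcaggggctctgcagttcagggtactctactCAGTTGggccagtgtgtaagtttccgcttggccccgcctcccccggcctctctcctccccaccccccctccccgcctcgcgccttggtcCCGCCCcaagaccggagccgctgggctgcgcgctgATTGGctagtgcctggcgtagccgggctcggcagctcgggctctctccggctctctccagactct
Pcdh10 upstream: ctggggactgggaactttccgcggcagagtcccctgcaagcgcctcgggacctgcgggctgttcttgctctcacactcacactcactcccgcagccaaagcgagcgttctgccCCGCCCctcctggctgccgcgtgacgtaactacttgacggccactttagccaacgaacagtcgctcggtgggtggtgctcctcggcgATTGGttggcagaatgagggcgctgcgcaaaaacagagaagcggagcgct
Of the 10 members, 9 had such a sequence in the table, and 8 of the 9 held CCAAT, all but Pcdh7, against 33.85% of the 32851 promoters of the table. The GC box was found in 4 of the 9, the genes printed here, against 32.74% of all promoters. TATAAA was found in 2 (Pcdh8 and Pcdh15) against 12.37%, CANNTG in 2 (Pcdh15 and Pcdh19) against 66.22%, and TGACGTCA in 0 against 1.546%. The CCAAT of Pcdh18 ended 27 bases before the start, that of Pcdh10 45 bases, that of Pcdh19 60 bases and the pair in Pcdh17 53 and 96 bases. These 4 promoters were rich in CpG, with 21 CpG in Pcdh17, 23 in Pcdh18, 16 in Pcdh19 and 22 in Pcdh10, where the median promoter held 6. Pcdh20 held 3. The CAAT and GC boxes were present both in Pcdh17, which was higher after KD, and in Pcdh10, which was not shown to change in the fit of all 6 libraries. Pcdh8, the delta-2 gene not printed, held the CAAT box and TATAAA but no GC box. The part of these boxes in the changes was not tested.

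YTHDF2 binds N6-methyladenosine, which is laid down mostly within DRACH motifs, and GGACT is a common form of these. The coding-sequence GGACT matches of Pcdh18 and Pcdh17, on the strand of the mRNA, are shown with 8 bases on each side, since Pcdh18 is the gene to be placed and Pcdh17 the member past the threshold. Capitals mark the GGACT. In Pcdh18, codons 153 and 608 are in exon 1 of 4 and codons 987 and 1073 in exon 4, on the minus strand.
Pcdh18 codon 153, chr3:49756395-49756415: agcagttgGGACTcgtatccc
Pcdh18 codon 608, chr3:49755029-49755049: gtcgacagGGACTctggtgcc
Pcdh18 codon 987, chr3:49745039-49745059: tttgggaaGGACTcccctagc
Pcdh18 codon 1073, chr3:49744782-49744802: ccctctggGGACTcactctag
In Pcdh17, all but the last of the matches are in exon 1 of 4, and the last is in exon 4, on the plus strand.
Pcdh17 codon 310, chr14:84447016-84447036: ggcaacctGGACTatgaggag
Pcdh17 codon 380, chr14:84447226-84447246: actgaccgGGACTcaggcaag
Pcdh17 codon 397, chr14:84447276-84447296: tggaggagGGACTggaggtgg
Pcdh17 codon 473, chr14:84447503-84447523: tcaccaaaGGACTttacgtgc
Pcdh17 codon 553, chr14:84447745-84447765: ctggctaaGGACTcaggggcg
Pcdh17 codon 838, chr14:84448599-84448619: cggacaagGGACTaattcgag
Pcdh17 codon 1145, chr14:84533510-84533530: ctcttgcaGGACTgccgggga
Over the whole transcript with the longest coding sequence, Pcdh17 held 16 GGACT, or 1.397 per kb, and Pcdh18 held 5, or 0.968 per kb. The median of the 13719 coding genes tested was 1.056 per kb, and 31.23% of them were at or above Pcdh17 and 55.67% at or above Pcdh18. Pcdh10 held 10 (1.412 per kb), and Pcdh19 held 11 (1.069 per kb). A match is a run of letters and not a measured methylation site.

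After Ythdf2 KD, Pcdh17 was the 1 member of 10 that was higher past the adjusted threshold, and no member was lower past it. Over all genes tested 0.244% were higher by the same call (42 of 17214). At an unadjusted p under 0.05, 6 members were higher (Pcdh7, Pcdh15, Pcdh17, Pcdh18, Pcdh19 and Pcdh20) and 0 were lower, where 9.50% of all genes were higher and 10.6% lower. The groups did not overlap in 5 members, each with shYthdf2 above shCtrl, where 12.6% of all genes had such groups. The median log2 fold change was 0.62 over the members and 0.01 over all genes tested. Because the members were chosen with earlier results of these data known, these counts and medians are a description and no test of the family. By subfamily, 3 of the 5 delta-2 genes and both genes outside the delta groups had groups that did not overlap, and none of the 3 delta-1 members did. Pcdh11x, a delta-1 gene outside the 10, did have such groups (log2 fold change 0.65). For Pcdh18 and Pcdh20 the lowest shYthdf2 library (18.04 and 31.4 normalized counts) was only just above the highest shCtrl library (17.4 and 31.0).

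**Figure D1:**
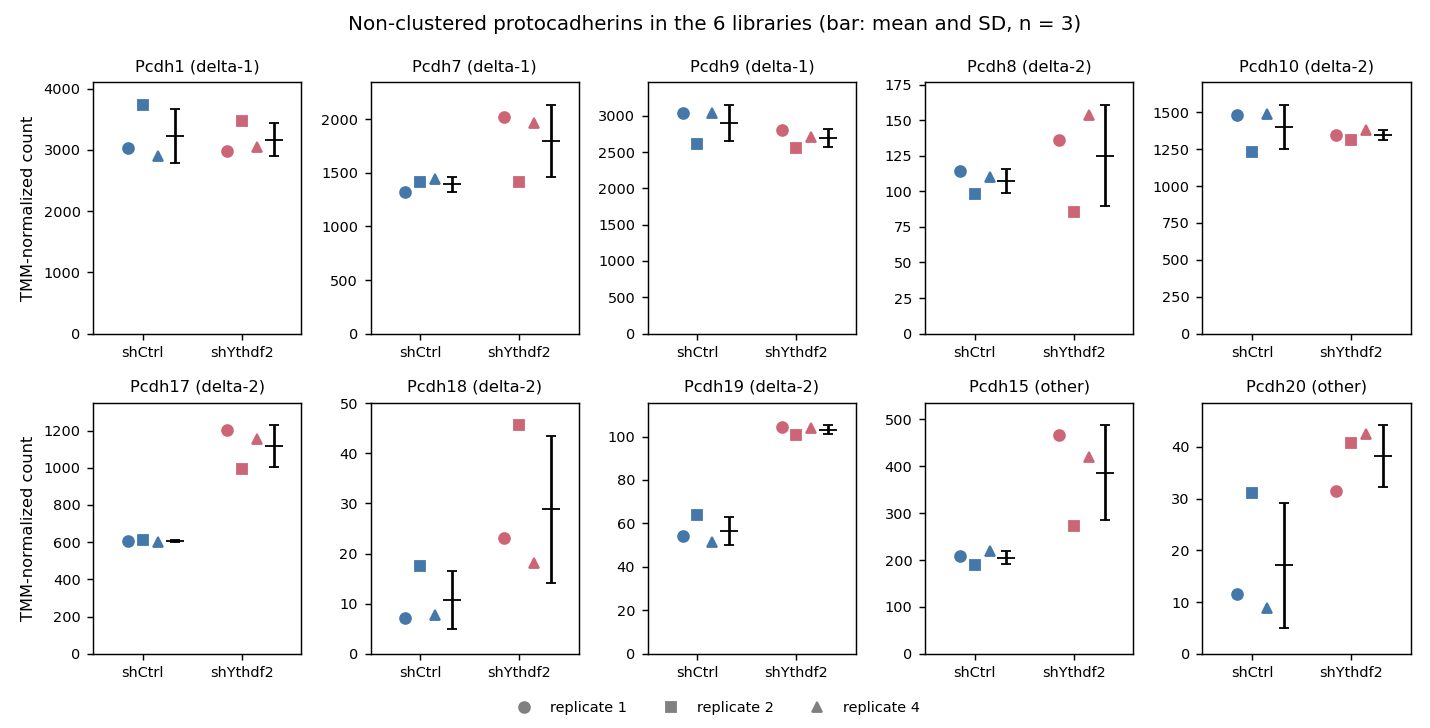
TMM-normalized counts (y axis, from 0) of the 10 members in each of the 6 libraries, with shCtrl in blue and shYthdf2 in red, the replicate number as the symbol, and bars for the mean and SD of 3 libraries. Every shYthdf2 library lies above every shCtrl library for Pcdh17, Pcdh18, Pcdh19, Pcdh15 and Pcdh20, and Pcdh17 sits at 992 to 1205 against 602 to 612.

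Among the delta-2 genes, Pcdh17 (ENSMUSG00000035566, chr14:84443563-84539002, plus strand), which acts in axon extension and in presynaptic assembly, was at 1205, 992 and 1155 normalized counts in shYthdf2 and at 605, 612 and 602 in shCtrl. The shCtrl libraries were nearly level, and the lowest shYthdf2 library, replicate 2, was still well above them. The means were 1117 ± 111 and 606 ± 5.25 (SD, n = 3 each), a 1.84-fold difference, with a log2 fold change of 0.88 (SE 0.11, edgeR adjusted p = 0.0430, rank 26 by p of all genes tested). A two-sided exact permutation test of the means gave p = 0.1, the smallest that 3 against 3 libraries allow. Without replicate 1 or 4 of either group the log2 fold change stayed at 0.82 to 0.87 but the edgeR adjusted p rose to 0.286 and 0.269 (shYthdf2 replicates 1 and 4) and 0.258 and 0.241 (shCtrl replicates 1 and 4). In those fits 0 of all genes passed the threshold, with 1986 to 2120 at an unadjusted p under 0.05.

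Pcdh18 (ENSMUSG00000037892, chr3:49743296-49757325, minus strand), known to bind the adaptor protein Dab1, was at 23.0, 45.6 and 18.04 normalized counts in shYthdf2 and at 7.10, 17.4 and 7.69 in shCtrl. Replicate 2 was the highest library of each group, and the lowest shYthdf2 library was only just above the highest of shCtrl. The means were 28.9 ± 14.7 and 10.7 ± 5.81 (SD, n = 3 each). Its log2 fold change of 1.42 was the highest of the 10, and so was its SE of 0.52. The unadjusted p was 0.0271 and the edgeR adjusted p 0.189. These values rest on 7 to 47 raw counts per library. Within replicate numbers the differences were 1.70, 1.39 and 1.23 on the log2 scale for replicates 1, 2 and 4. Without shYthdf2 replicate 2 the log2 fold change was 0.92 and without shCtrl replicate 2 it was 1.96, and with a batch term for replicate 2 the edgeR adjusted p was 0.0174 (range over the alternatives 0.00978 to 0.498). The study placed Pcdh18 in its own list of YTHDF2 targets. That list joins a separate anti-YTHDF2 RIP-seq (sequencing of RNA pulled down with the reader) with the RNA-seq of these libraries. The direction in it rests on these libraries, so the list is not independent evidence of the direction.

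Pcdh19 (ENSMUSG00000051323, chrX:133582860-133688987, minus strand), an X-linked epilepsy gene whose product pairs with N-cadherin, was at 105, 101 and 104 normalized counts in shYthdf2 and at 54.1, 63.9 and 51.6 in shCtrl. The shYthdf2 libraries were nearly level here and all above shCtrl. The means were 103 ± 2.01 and 56.6 ± 6.51 (SD, n = 3 each), with a log2 fold change of 0.86 (SE 0.20, edgeR adjusted p = 0.0856). The size was thus close to that of Pcdh17 at a lower count, and the adjusted p was 0.0144 with DESeq2 (range over the alternatives 3.04e-04 to 0.351).

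The other delta-2 genes were not shown to change in the fit of all 6 libraries. Pcdh10 (ENSMUSG00000049100, chr3:45378398-45435623, plus strand), which acts in axon guidance, was at 1349, 1313 and 1382 normalized counts in shYthdf2 and at 1480, 1231 and 1492 in shCtrl. The shCtrl libraries spanned those of shYthdf2, with a log2 fold change of -0.06 (SE 0.11, edgeR adjusted p = 0.805). It was -0.14 (adjusted p = 0.239) without shCtrl replicate 2, -0.02 without shCtrl replicate 1, -0.01 without shCtrl replicate 4 and -0.13 without replicate 2 in both groups, where it passed the threshold (adjusted p = 0.0284, range over the alternatives 0.0284 to 0.977). Pcdh8 (ENSMUSG00000036422, chr14:79766775-79771312, minus strand), whose product is induced by neuronal activity and takes part in the internalization of N-cadherin, was at 136, 85.3 and 154 in shYthdf2 and at 114, 97.8 and 110 in shCtrl. Its shYthdf2 libraries lay on both sides of shCtrl, with a log2 fold change of 0.22 (SE 0.25, edgeR adjusted p = 0.672). The value was 0.43 without shYthdf2 replicate 2 and 0.04 without shYthdf2 replicate 4, and its adjusted p ranged from 0.0507 to 0.967 over the alternatives.

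Outside the delta groups, Pcdh15 (ENSMUSG00000052613, chr10:73099342-74649737, plus strand), a component of the tip link of hair cells, was at 466, 273 and 420 normalized counts in shYthdf2 and at 208, 190 and 219 in shCtrl. The groups did not overlap, and replicate 2 of shYthdf2 was the library closest to shCtrl. The means were 387 ± 101 and 205 ± 14.5 (SD, n = 3 each), with a log2 fold change of 0.91 (SE 0.21, edgeR adjusted p = 0.0889). The adjusted p was 0.00489 with DESeq2 and 0.0260 in the edgeR fit without shYthdf2 replicate 2 (range over the alternatives 3.01e-07 to 0.348). Pcdh20 (ENSMUSG00000050505, chr14:88464743-88471396, minus strand) was at 31.4, 40.7 and 42.5 in shYthdf2 and at 11.5, 31.0 and 8.79 in shCtrl. The highest shCtrl library, replicate 2, nearly reached the lowest of shYthdf2. The log2 fold change was 1.15 (SE 0.48, unadjusted p = 0.0456, edgeR adjusted p = 0.238), on 8 to 42 raw counts, and it was 1.89 (adjusted p = 0.0132, range over the alternatives 5.27e-04 to 0.561) without shCtrl replicate 2. The study also listed Pcdh20 among its changed genes on these libraries.

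Of the delta-1 genes, Pcdh7 (ENSMUSG00000029108, chr5:57717967-58133230, plus strand), whose product binds the phosphatase inhibitor SET, was at 2018, 1411 and 1962 normalized counts in shYthdf2 and at 1317, 1417 and 1445 in shCtrl. Replicates 1 and 4 of shYthdf2 were above every shCtrl library, and replicate 2 lay among them. The log2 fold change was 0.37 (SE 0.15, unadjusted p = 0.0397, edgeR adjusted p = 0.224), and 0.51 (adjusted p = 0.0366, range over the alternatives 2.70e-07 to 0.565) without shYthdf2 replicate 2. Pcdh9 (ENSMUSG00000055421, chr14:93013410-93890679, minus strand) was at 2799, 2553 and 2710 in shYthdf2 and at 3043, 2614 and 3039 in shCtrl, with overlapping groups and a log2 fold change of -0.11 (SE 0.10, edgeR adjusted p = 0.587). It was -0.18 (adjusted p = 0.147) without shCtrl replicate 2 and -0.15 without replicate 2 in both groups, where it passed the threshold (adjusted p = 0.00237, range over the alternatives 0.00237 to 0.847). Pcdh1 (ENSMUSG00000051375, chr18:38185914-38212053, minus strand) was at 2976, 3479 and 3049 in shYthdf2 and at 3037, 3730 and 2907 in shCtrl. Replicate 2 was the highest library of each group, and the log2 fold change of -0.03 (SE 0.13, edgeR adjusted p = 0.931) changed sign with the scaling.

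**Figure D2:**
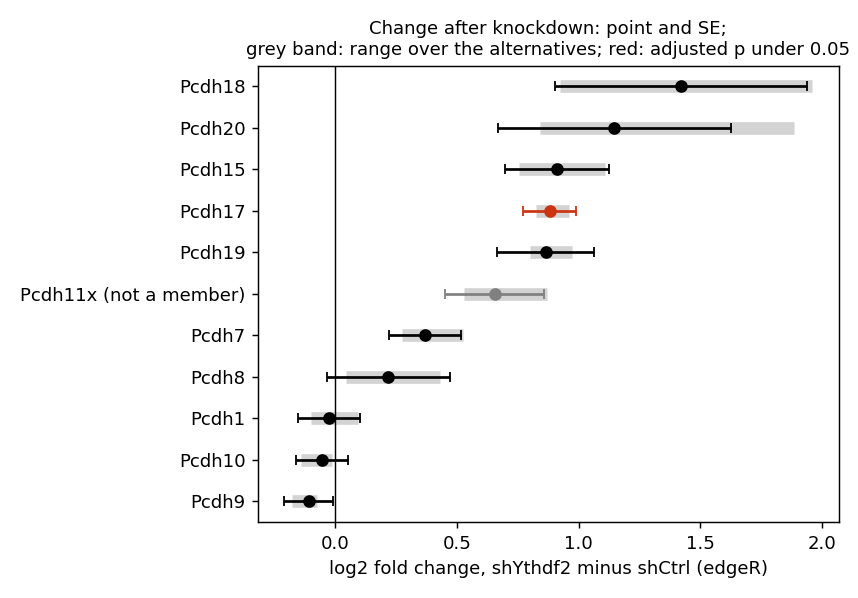
Log2 fold change of shYthdf2 over shCtrl (x axis) for the 10 members and for Pcdh11x, with points for the edgeR estimate, whiskers for its SE and grey bands for the range over the alternative fits. Pcdh17, in red, passed the adjusted threshold at 0.88, and Pcdh18 and Pcdh20 have the highest estimates with the widest bands.

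The differences between libraries of the same number were positive for 7 of the 10 members in replicate 1, for 6 in replicate 2 and for 8 in replicate 4. Pcdh17 differed by 0.99, 0.70 and 0.94 on the log2 scale, and Pcdh19 by 0.95, 0.66 and 1.01. Pcdh15 differed by 1.17, 0.53 and 0.94, and Pcdh20 by 1.44, 0.39 and 2.27. In these 4 genes the replicate 2 difference was the lowest of the 3, whereas Pcdh18 did not show this. With the replicate number as a block, Pcdh17 remained the only member past the threshold (edgeR adjusted p = 0.0445), while the count over all genes went from 104 to 232.

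**Figure D3:**
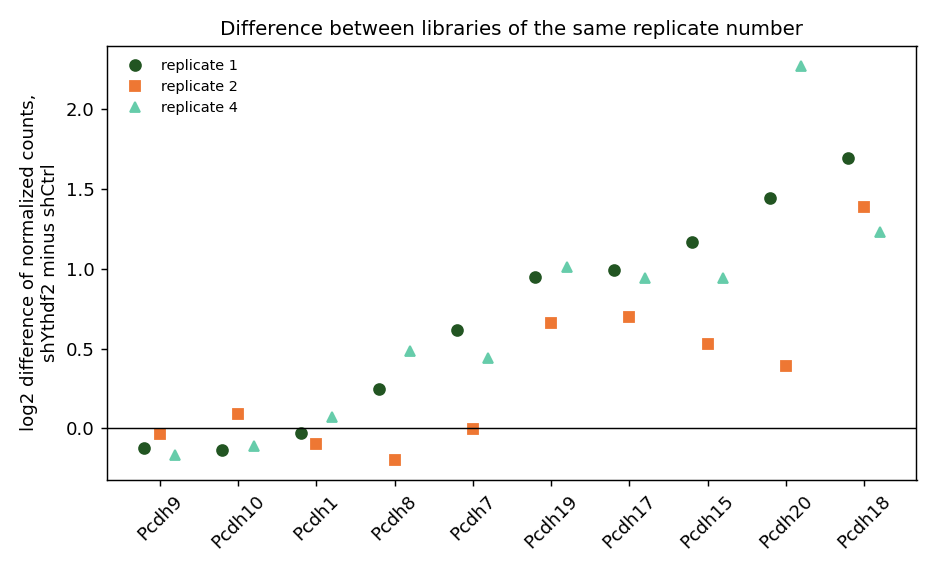
Log2 difference of normalized counts, shYthdf2 minus shCtrl (y axis), between libraries of the same replicate number for each member. Pcdh15, Pcdh17, Pcdh18, Pcdh19 and Pcdh20 are above 0 in all 3 pairs, and Pcdh7 falls to -0.01 in replicate 2.

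Compared per length, as TMM-normalized RPKM (reads per kilobase of exon union, scaled to library size), the levels in shCtrl ran from 22.5 ± 1.92 for Pcdh9 down to 0.106 ± 0.057 for Pcdh18 (SD, n = 3). Pcdh9 and Pcdh1 (19.3 ± 2.65) overlapped and were followed by Pcdh7 at 6.93, Pcdh10 at 4.65, Pcdh17 at 2.46, Pcdh8 at 1.25, Pcdh15 at 0.455, Pcdh19 at 0.285 and Pcdh20 at 0.164. Pcdh19 and Pcdh20 overlapped, as did Pcdh20 and Pcdh18, and by this length the libraries of the remaining neighbours did not. Pcdh18 thus had the lowest mean of the 10 members in shCtrl, and again in shYthdf2 at 0.284 ± 0.144, where it overlapped with Pcdh20 (0.367 ± 0.0572). Pcdh17 was at 4.53 in shYthdf2, beside Pcdh10 at 4.47, with overlapping ranges (5.14 and 8.63 by the longest transcript, apart). With the length of the longest transcript in place of the exon union, Pcdh1 (31.4) came before Pcdh9 (23.4) and Pcdh10 (8.97) before Pcdh7 (8.36) in shCtrl, and Pcdh18 stayed lowest. Pcdh15 moved most, from 0.455 to 1.19 in shCtrl, where its libraries (1.0996 to 1.27) then overlapped with those of Pcdh8 (1.14 to 1.33), and in shYthdf2 its mean of 2.24 was above that of Pcdh8 at 1.46.

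Summed over the 10 members, the delta-1 genes took 83.4% to 84.8% of the level per length in shCtrl libraries and 78.9% to 80.8% in shYthdf2 libraries. The delta-2 share was 14.0% to 15.6% in shCtrl and 17.5% to 18.9% in shYthdf2, and Pcdh15 and Pcdh20 together took 0.984% to 1.23% and 1.69% to 2.15%. These ranges of shares did not overlap. The summed RPKM of the delta-1 genes itself did overlap, at 49.6, 47.7 and 49.1 in shYthdf2 and 48.4, 49.7 and 48.2 in shCtrl. That of the delta-2 genes was 11.7, 10.3 and 11.8 in shYthdf2 and 9.04, 8.20 and 9.01 in shCtrl. Within this delta-2 sum, Pcdh17 was at 4.89, 4.03 and 4.69 in shYthdf2 and 2.46, 2.48 and 2.44 in shCtrl. Pcdh10 overlapped, at 4.48, 4.36 and 4.59 in shYthdf2 and 4.91, 4.09 and 4.95 in shCtrl. The higher delta-2 sum was thus not shared by all its genes. The shares and sums are given as a description without a test.

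**Figure D4:**
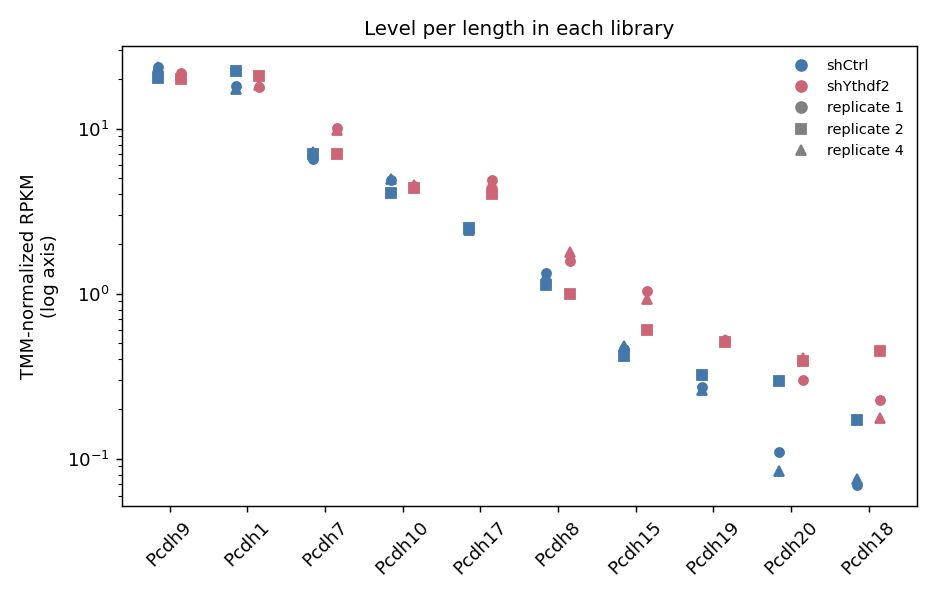
TMM-normalized RPKM (y axis, log scale) for each member in each library, ordered by the shCtrl mean, with the group as the color and the replicate number as the symbol. The members span from 22.5 for Pcdh9 to 0.106 for Pcdh18 in shCtrl, and Pcdh18 is at the right end in both groups.

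Of the non-clustered protocadherins outside the 10, Pcdh11x, a delta-1 gene, was at 276, 305 and 250 normalized counts in shYthdf2 and at 145, 225 and 158 in shCtrl. Its groups did not overlap either, with a log2 fold change of 0.65 (SE 0.20, edgeR adjusted p = 0.144). It passed with a batch term for replicate 2 (0.0183), without shCtrl replicate 2 (0.0131) and without replicate 2 in both groups (5.49e-05), and its adjusted p ranged up to 0.450. Pcdh12, an endothelial protocadherin, had 2 to 4 counts per library and was not tested.

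Partners of these proteins were examined as lists. Of the 9 genes of the WAVE regulatory complex, all tested, 0 passed the adjusted threshold and 1 was higher at an unadjusted p under 0.05 (9.50% of all genes were), with a median log2 fold change of -0.03. This was Wasf1, a WAVE protein of neurons, at 0.27 (SE 0.11, edgeR adjusted p = 0.236), and next came the subunits Brk1 at -0.31 (adjusted p = 0.260) and Wasf3 at -0.16 (adjusted p = 0.393). Of the 9 tip link and mechanotransduction genes, 5 were tested and 0 passed the adjusted threshold, with 1 higher and 1 lower at an unadjusted p under 0.05. Tmc1, a subunit of the hair cell channel, was at 49.1 ± 8.87 in shYthdf2 and 11.5 ± 6.50 in shCtrl (SD, n = 3, log2 fold change 2.07, SE 0.43, edgeR adjusted p = 0.0686). Cdh23, the tip link partner of Pcdh15, was at 19.5 ± 10.1 and 131 ± 87.6 (log2 fold change -2.73, SE 0.70, edgeR adjusted p = 0.105), with 187, 30.0 and 176 in the shCtrl libraries, so that its replicate 2 was far below the other two. Myo7a had a log2 fold change of 0.17 (edgeR adjusted p = 0.678).

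Among 7 other partners 0 passed the adjusted threshold, 1 was higher at an unadjusted p under 0.05 and the median log2 fold change was -0.05. Cdh2, which encodes N-cadherin, was at 0.22 (SE 0.09, edgeR adjusted p = 0.217), the kinase gene Taok2 at -0.21 (adjusted p = 0.250) and Nono, a nuclear partner of Pcdh19, at -0.16 (adjusted p = 0.439). Dab1, the Pcdh18 partner, was at 0.21 (adjusted p = 0.482). Of the 7 genes of the giant protocadherin group, 0 passed the adjusted threshold, 2 were higher and 1 was lower at an unadjusted p under 0.05 (9.50% and 10.6% of all genes), and the median was 0.06. Fat1 was at 6117 ± 91.6 normalized counts in shYthdf2 and 4300 ± 71.1 in shCtrl (SD, n = 3, log2 fold change 0.51, SE 0.08, edgeR adjusted p = 0.0527), just outside the threshold. Fat3 was at 0.74 (SE 0.25, adjusted p = 0.163) and Dchs2 at -1.64 (SE 0.49, adjusted p = 0.138).

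Markers of other cells moved between the libraries as well. The 5 fibroblast and meningeal markers summed to 3858, 10030 and 3977 normalized counts in shYthdf2 and to 2872, 8324 and 2809 in shCtrl. Both these markers and Pcdh18 were highest in replicate 2 of each group. The summed markers of granule neurons, progenitors, oligodendrocytes, GABAergic interneurons, endothelial and mural cells and unipolar brush cells were also highest there. That order was thus not particular to fibroblasts. The sums of oligodendrocyte precursor, astrocyte, microglial and Purkinje cell markers did not follow it. In shCtrl replicate 2 Pcdh18 was at 17.4, nearly level with the lowest shYthdf2 library (18.04, replicate 4). In raw counts this order was reversed, at 18 in shCtrl replicate 2 and 17 in shYthdf2 replicate 4. The fibroblast and meningeal marker sum of 8324 in shCtrl replicate 2 was above those of shYthdf2 replicates 1 and 4. The 6 oligodendrocyte precursor markers, a cell type in which Pcdh15 is well expressed, summed to 4140, 3195 and 4362 in shYthdf2 and to 1195, 5166 and 1261 in shCtrl. Pcdh15 was at 190 in shCtrl replicate 2, its lowest value, where these markers were at their highest. Within the libraries of replicates 1 and 4, both marker sums and both genes were higher in shYthdf2. All 6 precursor markers and all 5 fibroblast markers had a positive log2 fold change, with medians of 0.65 and 0.44, and 0 of them passed an unadjusted p under 0.05 in either direction. None of the markers in either list was at 0.

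**Figure D5:**
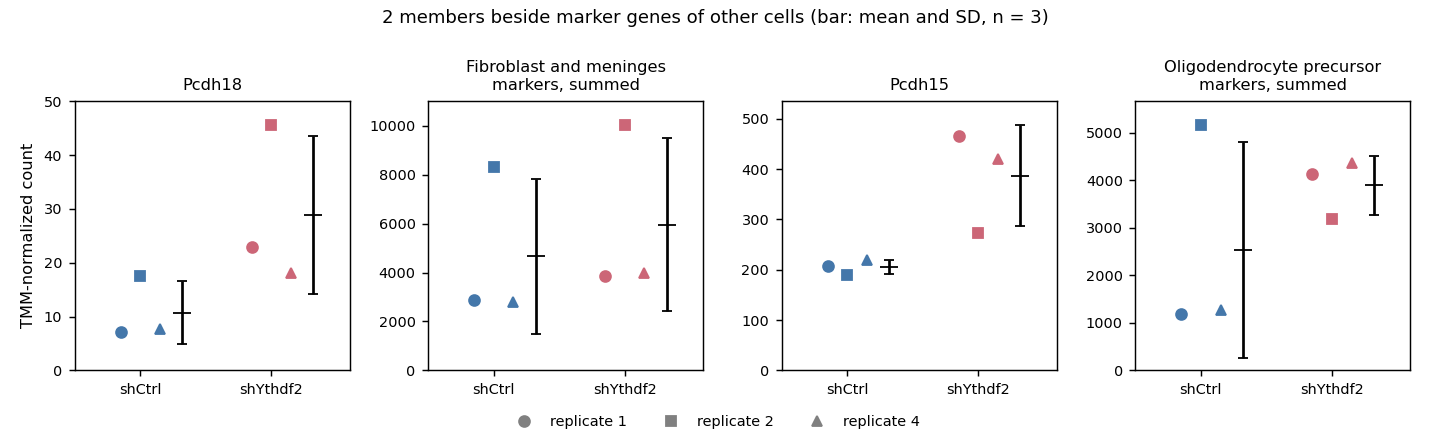
TMM-normalized counts (y axes, from 0) of Pcdh18 and Pcdh15 beside the summed counts of the 5 fibroblast and meningeal and the 6 oligodendrocyte precursor markers, by library, with the replicate number as the symbol and bars for the mean and SD of 3 libraries. Replicate 2 of shCtrl has high marker sums (8324 and 5166), with Pcdh18 at 17.4, near the 18.04 of shYthdf2 replicate 4, and Pcdh15 at 190.

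The remaining marker sums were as follows. Oligodendrocyte markers summed to 10768, 15639 and 11101 in shYthdf2 and to 4318, 14016 and 4078 in shCtrl, and astrocyte and Bergmann glia markers to 9445, 8840 and 9245 and to 4752, 10631 and 4841. Microglial markers summed to 984, 287 and 1071 and to 194, 730 and 171. GABAergic interneuron markers were at 7116 to 8878 in shYthdf2 and 5570 to 6659 in shCtrl, and endothelial and mural markers at 395 to 745 and 285 to 457. Of the 5 endothelial and mural markers 4 were tested and all 4 were positive, with Kdr higher at an unadjusted p under 0.05 (log2 fold change 0.82, SE 0.23, edgeR adjusted p = 0.119), Pecam1 at 22 to 33 counts and Cldn5, not tested, at no more than 1 count. Progenitor markers were at 1015 to 1120 and 800 to 1033, Purkinje cell markers at 411 to 626 and 555 to 568, and unipolar brush cell markers at 10773 to 11553 and 10137 to 12046. The part of these cells in the protocadherin values was not tested.

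The pattern over the 6 libraries was compared as Pearson correlations of log2 normalized counts, which share library, depth and group and are given as a description. Pcdh17 correlated with Pcdh19 at 0.970 and with Pcdh15 at 0.946, and Pcdh18 with Pcdh20 at 0.874. Pcdh9 correlated with Pcdh10 at 0.896 and with Pcdh18 at -0.895. Among genes with a mean of at least 50 normalized counts, the pattern most like Pcdh18 was that of Colec12 at 0.997, and the pattern most like Pcdh17 was that of Clcn1 at 0.998. The nearest were Cfap300 for Pcdh19 (0.997), Ints8 for Pcdh15 (0.9985), Nmral1 for Pcdh20 (0.997), Pign for Pcdh7 (0.997), Cdadc1 for Pcdh8 (0.9996), Pdcd6ip for Pcdh9 (0.996), Arhgap32 for Pcdh10 (0.996) and Tmem256 for Pcdh1 (0.999). With 6 libraries such values are common, and 571 genes exceeded 0.9 with Pcdh17 and 769 with Pcdh18.

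Overlapping annotation bears on 1 member most. Pcdh7 shares 2235 exon bases with 4932441J04Rik on the opposite strand, which had 34 to 60 counts, and whether the counting used strand is not given in the sources used here. Pcdh8 shares 436 exon bases with Gm9748 (0 to 2 counts), Pcdh10 shares 154 with 1700027H10Rik (0 to 2 counts) and Pcdh19 shares 57 with Gm26851 (0 counts). Pcdh18 and Pcdh20 overlap no annotated gene, and Pcdh17 shares no exon base with one.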

How the data were processed

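RNA-seq of cultured GCs after shYthdf2 or shCtrl infection was re-analysed from the count table. By the paper's methods adapter-bearing, ambiguous and low-quality reads were discarded by the authors, HISAT and TopHat2 were used for mapping to GRCm38 and HTSeq for counting, and the deposited values are whole-number counts without normalization. The submitters' processing notes name Bowtie 0.12.2 and mm9 instead. Which was used for this table was not settled, and genes were matched by Ensembl identifier, with 52489 of 53421 matched to a symbol of the GRCm38 annotation 785 unannotated genes outside it and 147 other identifiers without a symbol. The methods speak of 3 biological replicates per group. The groups were taken from the library names. The members and lists were chosen with earlier results of these data known.

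Genes were kept by filterByExpr (minimum count 10, minimum total 15), which left 17214 genes with 99.8% of the counts. The main test was edgeR 4.0.16 in R 4.3.3 (TMM, quasi-likelihood, two-sided, Benjamini-Hochberg over all genes tested, threshold 0.05). Counts of 17246821 to 21546595 per library limit genes with few counts, and SDs cover the spread between libraries. Levels per length used the exon union of the annotation. Correlations of deviations from the group means between libraries of the same number were 0.251, 0.362 and 0.291 for replicates 1, 2 and 4. Libraries of unlike number were not compared in this way, so these values cannot show that the numbers pair the libraries. The numbers, which come from the library names, were used as a block in an alternative. The 15 alternatives were RLE factors, no factor, DESeq2 1.42.0, limma-voom (limma 3.58.1), both other filters, the block, a batch term for replicate 2, leaving out replicate 2 in both groups, and leaving out each of the 6 libraries. The tests were checked on simulated data. Those counts were drawn independently for each library, with no replicate 2 effect, so the check does not cover the dependence on replicate 2. Named genes were all members, Ythdf2, Pcdh11x and Pcdh12, the 3 smallest p of each partner list, the gene most like each member and genes overlapping a member. Dab1, Neurod1, Cbln1, Kdr, Pecam1 and Cldn5 were added after their values were seen. Promoters are from RefSeq (GRCm38.p6), and protein sequences were not used here. Plots were drawn with matplotlib 3.10.9.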

Additional observations from a re-analysis of the deposited data

How the results depend on the processing

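Pcdh17 kept a positive log2 fold change of 0.82 to 0.96 in all 15 alternatives, and its adjusted p ranged from 3.75e-09 to 0.286 and was under 0.05 in 10 of them. Pcdh15, Pcdh18, Pcdh19, Pcdh20 and Pcdh7 kept their direction wherever they were tested. Pcdh18 had an adjusted p of 0.00978 to 0.498 over 14 alternatives, 2 of them under 0.05. It and Pcdh20 were not tested with at least 10 counts in every library, which left 8 members. Pcdh19 had 3.04e-04 to 0.351 (4 under 0.05), Pcdh15 3.01e-07 to 0.348 (5), Pcdh20 5.27e-04 to 0.561 (2) and Pcdh7 2.70e-07 to 0.565 (2).

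Of the 10 members, 1 passed in the reported fit, 3 with DESeq2 (Pcdh15, Pcdh17 and Pcdh19), 0 with limma-voom (5 at an unadjusted p under 0.05, and Pcdh17 at an adjusted p of 0.0528), 2 with no filter (Pcdh15 and Pcdh17) and 4 with the batch term for replicate 2 (Pcdh15, Pcdh17, Pcdh18 and Pcdh19). Leaving out libraries gave 0 to 8 members. The 8 came without replicate 2 in both groups, including lower values of Pcdh9 (-0.15, adjusted p = 0.00237) and Pcdh10 (-0.13, adjusted p = 0.0284), and 3 came without replicate 2 of either group alone. Over all genes 104 passed in the reported fit, 1321 with DESeq2, 24 with limma-voom, 639 with no filter, 232 with the replicate block, 3799 with the batch term, and 0 to 9186 when libraries were left out (9186 without replicate 2 in both groups, 3239 without shCtrl replicate 2). The block, with the pairing by library names, changed no call of a member. Pcdh1 changed sign with no normalization factor (0.0118) and ranged from -0.10 to 0.0924 when libraries were left out, with 0.0146 without replicate 2 in both groups. The cause of these changes was not tested. Counts of 7 to 47 limit Pcdh18 and Pcdh20 most.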
